A study of Mus musculus with 4 samples.

Results

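Nonsense-mediated decay is the pathway that destroys mRNAs on which translation stops too early. Its factors were examined here as 7 genes, Upf1, Upf2, Upf3a, Upf3b, Smg1, Smg5 and Smg6, taken as a family and found by symbol among the 23312 genes measured. All 7 passed the filter on low values (averages of 1 FPKM or more), which kept 11017 genes. The RNA came from bone marrow cells sorted as B220+CD43+ and described as pro-B cells, with 2 libraries from Cnot3 fl/fl mice and 2 from Cnot3 +/+ mice. All were C57BL/6 animals carrying RERTCre, a Cre recombinase that tamoxifen activates, and every mouse was injected with tamoxifen (1 mg each time; days 1, 2, 4 and 7) before analysis on day 10. By their labels the controls differed from the Cnot3 fl/fl mice in the Cnot3 allele and shared Cre and tamoxifen. Neither the ages of the mice nor the tissues in which the Cre acts are given in the sources used here. The design text calls the replicates individual animals.

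In this pathway UPF1, an RNA helicase, is recruited to ribosomes that stop at a premature stop codon. UPF2 and UPF3 proteins bridge it to the exon junction complex, a mark that splicing leaves on mRNA. The kinase SMG1 phosphorylates UPF1, and phosphorylated UPF1 recruits SMG6, which cuts the mRNA, and SMG5, which takes part in bringing in decapping and deadenylation. The CCR4-NOT complex, of which Cnot3 encodes a subunit, is the main deadenylase of the cell. Several factors of the pathway are known to be targets of it themselves, and their mRNAs rise in other cells when it is blocked.

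Values were FPKM, fragments scaled to transcript length and library size, so levels of different genes can be set side by side. No read counts were in the files, so depth is known only as relative depths of 0.746 to 1, estimated from the lowest values. Cnot3 itself ranged from 39.0 to 41.6 FPKM over the 4 libraries. A whole-gene level cannot check a deletion of some exons, so every direction below is one between labelled libraries. Cnot3 +/+ replicate 1 stood apart in sex-linked genes, with Xist at 0.0242 FPKM against 54.3 to 63.1 FPKM elsewhere and Ddx3y at 16.0 FPKM. Sex-linked expression was thus not balanced between the genotypes, and its part in the differences below was not tested.

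Of the 7 genes, Smg5 fell in the Cnot3 fl/fl libraries, 0 rose and 6 were not called (limma, Benjamini-Hochberg adjusted p under 0.05 over all genes tested). Over all 11017 genes 3.28% were called lower and 6.22% higher, or 9.49% in either direction. The largest difference was in Smg1, whose mean level was 34.2% lower but which did not pass. The genotypes did not overlap in 6 of the 7 genes, 5 lower and 1 higher in Cnot3 fl/fl, and over all genes tested the same held for 64.4%, with 31.7% lower and 32.7% higher. The median log2 fold change of the 7 genes was -0.21, against -0.01 over all genes tested. The 95% intervals of Upf2, Upf3a and Smg6 included 0.

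**Figure D1:**
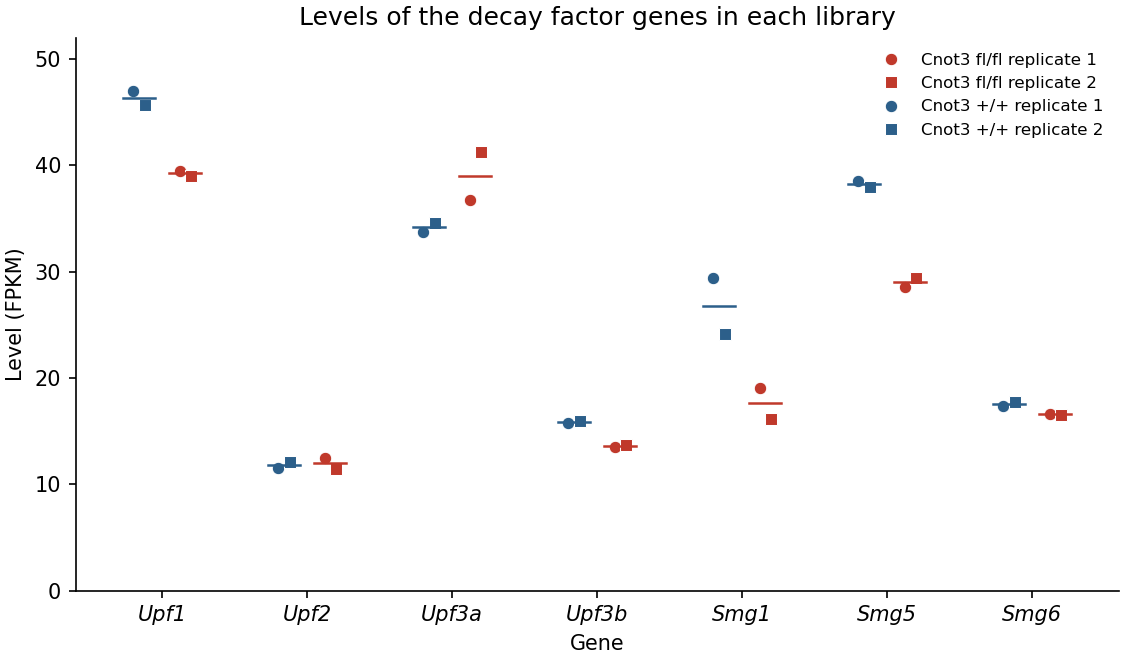
Level in FPKM (vertical axis, from 0) of each of the 7 genes in the 4 libraries, in blue for Cnot3 +/+ and red for Cnot3 fl/fl, with circles for replicate 1, squares for replicate 2 and horizontal lines at the mean of each genotype. The red points lie below the blue ones in Upf1, Upf3b, Smg1, Smg5 and Smg6, above them in Upf3a, and overlap them in Upf2.

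The helicase gene Upf1 had the highest mean level of the 7 in both genotypes, though in Cnot3 fl/fl its range overlapped that of Upf3a. Upf1 was at 39.5 and 39.0 FPKM in replicates 1 and 2 of Cnot3 fl/fl, against 47.0 and 45.7 FPKM in those of Cnot3 +/+. Both Cnot3 fl/fl values were thus under both Cnot3 +/+ values, and the gap between genotypes was wider than the gap between replicates. The log2 fold change of Upf1 was -0.23 with a standard error of 0.07 (95% interval -0.42 to -0.05, limma adjusted p = 0.098), so it did not pass. In the files' mm9 coordinates the Upf1 locus, chromosome 8 from 72839673 to 72877172, is merged with those of Cers1 and Gdf1. Cers1 and Gdf1 were each under 0.8 FPKM in every library.

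Upf2, whose product links UPF1 to the UPF3 proteins, was the least abundant of the 7. It was at 12.5 and 11.5 FPKM in the Cnot3 fl/fl pair against 11.5 and 12.1 FPKM in the Cnot3 +/+ pair, and the genotypes overlapped. Its log2 fold change was 0.02 with a 95% interval from -0.22 to 0.26 (limma adjusted p = 0.91).

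Upf3a and Upf3b are paralogs whose proteins bind the exon junction complex, UPF3B being held to be the stronger activator of decay and UPF3A the weaker one or, in some settings, an antagonist. Upf3a was at 36.8 and 41.3 FPKM in the Cnot3 fl/fl pair against 33.7 and 34.6 FPKM in the Cnot3 +/+ pair, the only one of the 7 with both Cnot3 fl/fl values on top. Upf3b was at 13.5 and 13.7 FPKM in the Cnot3 fl/fl pair against 15.8 and 16.0 FPKM in the Cnot3 +/+ pair, both lower in Cnot3 fl/fl. The paralogs thus stood apart in opposite directions, but neither passed the test. For Upf3a the log2 fold change was 0.18 (95% interval -0.05 to 0.42, limma adjusted p = 0.22). For Upf3b it was -0.21 (95% interval -0.42 to -0.004, adjusted p = 0.14). Upf3b lies on the X chromosome, and the Cnot3 +/+ library with the high Ddx3y value (replicate 1, 15.8 FPKM) differed little from the other (16.0 FPKM) in it.

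Smg1 encodes the kinase that phosphorylates UPF1, a member of the same family as ATM and mTOR. It was at 19.1 and 16.2 FPKM in the Cnot3 fl/fl pair against 29.4 and 24.1 FPKM in the Cnot3 +/+ pair. The genotypes did not overlap, although replicates differed more in Smg1 than in any of the other 6 genes in the Cnot3 +/+ libraries. The log2 fold change was -0.57 with a standard error of 0.14 (95% interval -0.94 to -0.21, limma adjusted p = 0.067). Smg1 also had the smallest q-value of the 7 in the authors' deposited table, at 0.074. Ranked from the lowest, this fold change was number 526 of the 11017. Over the alternatives run the log2 fold change of Smg1 lay between -0.71 and -0.44 and its adjusted p between 0.047 and 0.28. In mm9 the locus of Smg1 runs on chromosome 7 from 125274825 to 125387151 and overlaps no other gene of the table.

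Smg5 encodes a protein that binds phosphorylated UPF1. Its mm9 locus lies on chromosome 3 from 88140181 to 88166259. It was at 28.6 and 29.4 FPKM in the Cnot3 fl/fl pair against 38.6 and 37.9 FPKM in the Cnot3 +/+ pair. Both Cnot3 fl/fl libraries were low by about the same amount and replicates lay close together, with means of 29.0 ± 0.602 and 38.2 ± 0.451 FPKM (SD, n = 2 each). Smg5 fell by 0.39 on the log2 scale with a standard error of 0.07 (95% interval -0.58 to -0.20, limma adjusted p = 0.045), or by 24.2% of the mean FPKM. The authors' deposited table gave it a q-value of 0.25, and none of the 7 genes was significant there, where 3.44% of all genes were, 1.31% as lower. The limma call was lost under several alternatives, among them no filter on low values (adjusted p = 0.068), a fit without the mean-variance trend (adjusted p = 0.068) and leaving out any 1 of the 4 libraries (0.11 to 0.23), and over all alternatives its adjusted p ran from 0.037 to 0.23. Its log2 fold change stayed between -0.42 and -0.35 over the same alternatives.

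Smg6 encodes the endonuclease of the pathway. It was at 16.6 FPKM in both Cnot3 fl/fl replicates and at 17.4 and 17.8 FPKM in Cnot3 +/+ libraries. The values did not overlap, but the gap was small, with a log2 fold change of -0.08 (95% interval -0.28 to 0.12, limma adjusted p = 0.50).

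**Figure D2:**
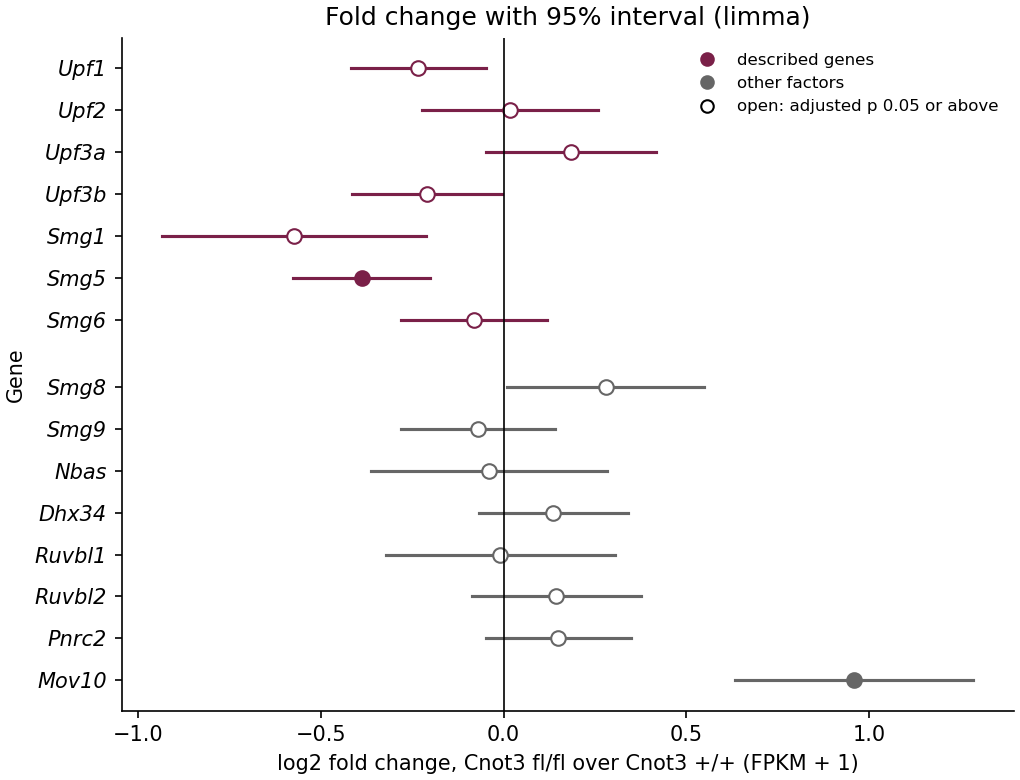
Log2 fold change of Cnot3 fl/fl over Cnot3 +/+ on the log2(FPKM + 1) scale (horizontal axis) with its 95% interval from limma, for the 7 genes in purple and 8 other factors of the pathway in grey, filled where the adjusted p was under 0.05. Smg5 at -0.39 and Mov10 at 0.96 are filled, and Smg1 has the lowest value of all, -0.57, with the widest interval of the 7.

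Some markers of pro-B cells and a few of other cells differed between the genotypes beside these values. All 14 genes of the pro-B list were detected, none was at 0 in any library, and 5 of them fell, against 3.28% of all genes tested called lower and 6.22% called higher. These were Vpreb1, Igll1 and Vpreb3, genes of the surrogate light chain and its relatives, at -3.31, -2.77 and -2.41 on the log2 scale, and Pax5 at -1.26, with Cd79a at 62.4 and 66.2 FPKM in Cnot3 fl/fl against 110.5 and 152.1 FPKM in Cnot3 +/+ libraries. The other 9 were not called, among them Rag1, Ebf1 and Rag2 at -1.51, -1.48 and -1.22, and 4 of the 14 lay above 0. The authors' deposited table marked 7 of the 14 as significant and lower and 0 as higher, against 1.31% and 2.13% of all 23312 genes. It also marked 4 genes of the neutrophil and monocyte list and 4 of the T and NK cell list as higher. In those lists 0 were marked lower, and the plasmacytoid dendritic cell list had 1 each way. The summed level of the 14 was 1251 to 1309 FPKM in Cnot3 fl/fl and 1447 to 1767 FPKM in Cnot3 +/+ libraries. The 10 plasmacytoid dendritic cell genes summed to 6948 to 8246 FPKM against 8587 to 8721 FPKM, with 1 higher and 1 lower. Among all genes tested, the mean levels of Bst2 and Siglech from this list lay at the 99.96th and 99.8th percentiles. Both were above every gene of the pro-B list, of which Ptprc was highest, at the 98.3rd percentile. Such levels do not give the shares of cell types. The libraries are bulk, so the decay factor levels are those of the whole sorted population. The 10 neutrophil and monocyte genes summed to 174.0 to 254.1 FPKM against 168.8 to 227.2 FPKM, and the genotypes overlapped. Elane, Ctsg and Itgam, the 3 called, were higher. Of the 10, 7 lay above 0 and 3 below, these being S100a8, Ngp and Ltf at -0.04, -0.21 and -0.28. Of the T and NK cell list 9 of 10 genes were measured. They summed to 920.7 to 1098 FPKM against 874.6 to 926.0 FPKM, and the genotypes overlapped. Among them Cd8a was called higher, at 2.65 on the log2 scale. Cd3g, Cd4 and Cd3e were not called, at -0.55, -0.44 and -0.19. Of the 9, 5 lay above 0 and 4 below. In these bulk libraries fewer cells of a type and less RNA per cell cannot be told apart, and the part of cell composition in the decay factor levels was not tested.

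The order of levels was nearly the same in both genotypes. In Cnot3 +/+ libraries it ran from Upf1 through Smg5, Upf3a, Smg1, Smg6 and Upf3b to Upf2, and no 2 neighbours overlapped in range. In Cnot3 fl/fl libraries Upf3a stood before Smg5. There Upf1 and Upf3a overlapped (39.0 to 39.5 against 36.8 to 41.3 FPKM), as did Smg1 and Smg6 (16.2 to 19.1 against 16.6 FPKM), so these neighbours did not differ beyond their spread. Among all genes tested the mean levels of the 7 lay between the 43.5th percentile, for Upf2, and the 80.5th, for Upf1.

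Ratios within a library do not depend on the scaling between libraries, and 6 ratios between partner genes were computed, chosen after the levels were seen. The transcript ratio of Upf3a to Upf3b was 2.71 and 3.02 in Cnot3 fl/fl and 2.13 and 2.16 in Cnot3 +/+ libraries. The ratio of Smg1 to Smg8, whose product holds the kinase inactive together with SMG9, showed the widest gap. It was 1.52 and 1.15 in Cnot3 fl/fl against 2.61 and 2.35 in Cnot3 +/+ libraries. The ratio of Smg1 to Smg9 was 0.888 and 0.741 against 1.24 and 1.10. These 2 ratios show that kinase transcripts were lower relative to those of its inhibitors in both Cnot3 fl/fl libraries. Smg5 relative to the endonuclease gene Smg6 was at 1.72 and 1.78 against 2.22 and 2.14. Upf2 relative to Upf1 was at 0.316 and 0.294 against 0.245 and 0.266, and Smg1 relative to Upf1 at 0.483 and 0.414 against 0.626 and 0.528. None of the 6 ratios overlapped between genotypes, and the two-sided exact permutation p of each was 0.333, the smallest that 2 against 2 libraries allow. As single genes, 64.4% of all genes tested did not overlap either, and the share over other gene pairs was not computed. The ratios restate the levels of the single genes and add no independent support to them.

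**Figure D3:**
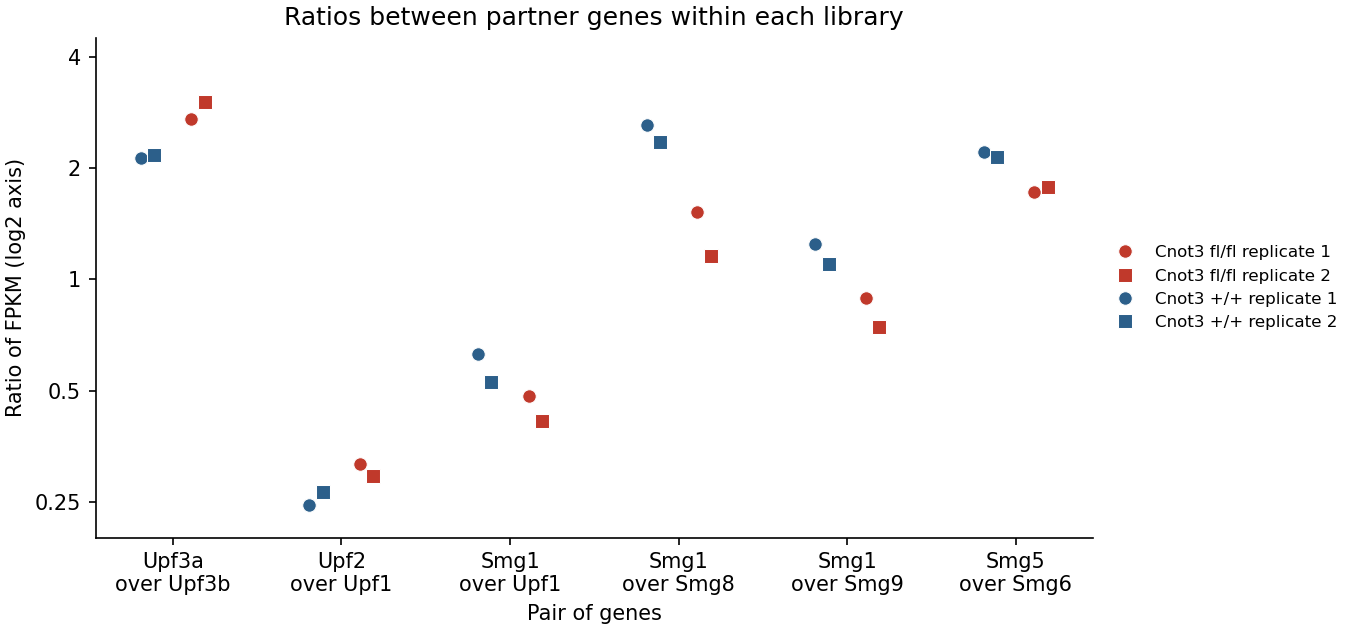
Ratio of FPKM between 2 genes within each library (vertical axis, log2 scale) for 6 pairs, in blue for Cnot3 +/+ and red for Cnot3 fl/fl, with circles for replicate 1 and squares for replicate 2. The red points lie above the blue ones for Upf3a over Upf3b and Upf2 over Upf1 and below them for the other 4 pairs.

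Upstream sequences are shown for Smg5, the gene that passed the test, for Upf3b, which shares an element with it, and for Smg1, the gene with the largest difference. They are the 250 bases before the annotated start, from RefSeq on GRCm38.p6, a later build than the mm9 of the expression files. All 7 genes matched the promoter table. The capitals mark TCGCGAGA in Smg5 and Upf3b and the GC box GGGCGG in Smg1, both searched on both strands. The Smg5 sequence is chr3:88336010-88336259 on the plus strand, that of Upf3b chrX:37110323-37110572 on the minus strand and that of Smg1 chr7:118243638-118243887 on the minus strand.

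Smg5: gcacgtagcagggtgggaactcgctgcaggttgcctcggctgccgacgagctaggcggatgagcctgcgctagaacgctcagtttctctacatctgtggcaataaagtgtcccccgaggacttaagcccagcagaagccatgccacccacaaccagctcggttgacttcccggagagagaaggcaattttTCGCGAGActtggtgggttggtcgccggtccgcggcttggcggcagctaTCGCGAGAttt

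Upf3b: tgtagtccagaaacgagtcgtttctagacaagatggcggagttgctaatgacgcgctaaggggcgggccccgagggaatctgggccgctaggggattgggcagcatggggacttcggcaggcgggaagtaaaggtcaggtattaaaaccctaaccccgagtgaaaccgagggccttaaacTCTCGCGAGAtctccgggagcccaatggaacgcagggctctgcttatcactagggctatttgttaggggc

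Smg1: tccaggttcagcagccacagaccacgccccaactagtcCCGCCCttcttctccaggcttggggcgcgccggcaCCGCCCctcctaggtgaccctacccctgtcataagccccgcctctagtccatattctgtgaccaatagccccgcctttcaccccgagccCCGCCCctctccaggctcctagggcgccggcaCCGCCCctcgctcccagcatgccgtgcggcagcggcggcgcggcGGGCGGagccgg

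TCGCGAGA, looked for after these sequences had been read, was present in Smg5 as 2 separate copies. In Upf3b it was present as 1 palindromic run in which both strands match and overlap. It was found in none of the other 5 genes and in 0.858% of the 32851 promoter windows of the table. GGGCGG was found in 6 of the 7 genes, 5 times each in Smg1 and Upf2, and not in Smg5, and in 32.7% of all windows. None of the 7 windows held TATAAA, which 12.4% of all windows did. CCAAT was in Upf3a, Upf3b and Smg1, and in 33.8% of all windows. These matches describe the letters in the windows and are no measure of binding.

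In the GENCODE M21 annotation (GRCm38), the 3 SMG genes each had 1 transcript classed as a target of nonsense-mediated decay, among 10 annotated transcripts of Smg1, 9 of Smg5 and 6 of Smg6. The 4 UPF genes had none. Of tested genes that matched a protein-coding gene there, 30.4% had at least 1 such transcript. The longest coding transcript of Smg1, with 63 exons and 15557 bases, was longer than those of 99.7% of protein-coding genes, whereas that of Upf3a had 9 exons and 2057 bases. A single FPKM value per gene does not separate such transcripts from the coding ones.

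By the centred log2 profiles over the 4 libraries, Upf1 and Upf3b were the most alike of the 7, with a root-mean-square difference of 0.03, and Upf3a and Smg1 the least alike, at 0.42. The 5 genes outside the pathway with profiles nearest to Smg5 were Tial1, which encodes an RNA-binding protein, Pdrg1, Atad1, Zfp91 and Cd164, at differences up to 0.01. With 4 libraries such likeness is common, and 224 genes lay within 0.05 of Smg5.

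Among 8 other factors of the pathway, Mov10 rose, none fell and 7 did not pass, against 6.22% of all genes tested called higher, and the median log2 fold change was 0.14. Mov10, an RNA helicase that UPF1 binds and that also acts against viruses, was at 10.7 and 9.22 FPKM in the Cnot3 fl/fl pair against 4.33 and 4.93 FPKM in the Cnot3 +/+ pair. Its fold change of 0.96 on the log2 scale (limma adjusted p = 0.036) was the only one in this list that the authors' deposited table also marked as significant. The limma call of Mov10 was lost with no filter on low values (adjusted p = 0.070) and without any 1 library (0.093 to 0.21), over a range of 0.022 to 0.21 in all alternatives. Smg8 lay higher in both Cnot3 fl/fl libraries, at 12.6 and 14.0 FPKM against 11.3 and 10.3 FPKM, with a log2 fold change of 0.28 (adjusted p = 0.14). Smg9 had a log2 fold change of -0.07, and Pnrc2, a decapping adaptor, and the helicase gene Dhx34 had 0.15 and 0.14. The ATPase gene Ruvbl2 had 0.14.

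In the list of 11 genes of translation termination, ribosome recycling and cap binding, 10 were tested, and 2 fell, 0 rose and 8 did not pass, against 3.28% of all genes tested called lower and 6.22% higher. Pabpc1, whose product on the poly(A) tail opposes recognition of a stop codon as premature, was at 152.0 and 156.6 FPKM in the Cnot3 fl/fl pair against 245.3 and 234.1 FPKM in the Cnot3 +/+ pair (log2 fold change -0.63, limma adjusted p = 0.036). Ncbp2, the small subunit of the nuclear cap-binding complex, was at 20.3 and 19.5 against 28.8 and 28.7 FPKM (log2 fold change -0.51, adjusted p = 0.040). Both calls were lost with no filter (adjusted p = 0.064 for each) and without any 1 library (0.098 to 0.21 for Pabpc1 and 0.095 to 0.22 for Ncbp2), and that of Ncbp2 also without the trend (0.054), with lowest values of 0.023 and 0.027 over all alternatives. The large subunit partner Ncbp1 went the other way without passing, at 40.5 and 43.0 against 33.4 and 34.8 FPKM (adjusted p = 0.081). Pabpc4, a paralog of Pabpc1, had the lowest log2 fold change of the list, -0.66, without passing, at 3.95 and 4.88 against 6.46 and 8.68 FPKM (adjusted p = 0.081). For the recycling factor gene Abce1 the log2 fold change was -0.33 (adjusted p = 0.061), and the release factor genes Etf1 and Gspt1 had -0.13 and -0.02. Gspt2 was under 0.3 FPKM in every library and was not tested.

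The 12 exon junction complex genes gave 0 calls in limma, against 3.28% of all genes tested called lower and 6.22% higher. Their median was 0.07. An unadjusted p under 0.05 was found for 4 of the 12, about the same share as the 3722 of all 11017 genes tested. The helicase gene Eif4a3, which anchors the complex on RNA, lay higher at 44.2 and 51.6 against 36.0 and 38.4 FPKM, with a log2 fold change of 0.35 (adjusted p = 0.094). Its core partner Magoh lay lower at 38.9 and 45.1 against 51.1 and 62.4 FPKM, with -0.42 (adjusted p = 0.11). Sap18, an auxiliary subunit, had the lowest value of the list, -0.45 (adjusted p = 0.12), and the core subunit gene Casc3 had 0.20. Members of the complex thus differed in sign, with 7 above 0 and 5 below.

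The 6 decay enzyme genes recruited by the pathway gave 0 calls in limma. Of them 1 had an unadjusted p under 0.05, against 3722 of all 11017 genes tested. That 1 was the decapping enzyme gene Dcp2, at 7.68 and 6.19 against 11.3 and 8.74 FPKM (log2 fold change -0.47, adjusted p = 0.13). The deadenylase genes Cnot8 and Cnot7 had log2 fold changes of 0.22 and -0.10, and the decapping cofactor gene Dcp1a had 0.03. The 8 kinases related to SMG1 and their chaperones also gave 0 calls, with no unadjusted p under 0.05. Over all genes tested 3.28% were called lower and 6.22% higher. The kinase genes Mtor and Atr had log2 fold changes of -0.12 and -0.06. The chaperone genes Tti1 and Tti2 had 0.18 and 0.12, and their partner Telo2 had -0.18. Tti1 had the smallest p of the list (adjusted p = 0.21). The list ran from -0.18 to 0.18, whereas Smg1 was at -0.57. Neither list held a gene that was significant in the authors' deposited table.

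Transcripts known as targets of the pathway in other cells lay mostly on the lower side in Cnot3 fl/fl libraries. But in limma 0 of 21 tested were called, against 3.28% of all genes tested called lower and 6.22% higher. An unadjusted p under 0.05 was found for 5 of the 21, a smaller share than the 3722 of all 11017 genes tested. The log2 fold change was below 0 in 18 of the 21, against 51.0% of all genes tested, with a median of -0.36. In 13 of them the genotypes did not overlap with Cnot3 fl/fl lower, and in none with Cnot3 fl/fl higher, against 31.7% and 32.7% of all genes tested. Gas5, a non-coding snoRNA host gene whose RNA ends in this pathway when translated, measured 21.7 and 22.8 FPKM against 28.4 and 32.9 FPKM (adjusted p = 0.061). Srsf6, a splicing factor gene that makes a decay-targeted isoform of its own mRNA, measured 69.1 and 74.8 FPKM against 99.3 and 91.9 FPKM (adjusted p = 0.056). For Tra2b, another splicing factor gene, the difference came to -0.42 on the log2 scale (limma adjusted p = 0.094). The stress gene Gadd45b, at -0.76 on the log2 scale (limma adjusted p = 0.11), was the only member significant in the authors' deposited table. In both genotypes replicate 2 was higher than replicate 1 for every tested gene of this list except Srsf6 and Ptbp2. Atf3 differed most widely between replicates, at 1.63 and 45.7 against 0.852 and 26.8 FPKM. These are levels over all isoforms and do not measure decay.

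**Figure D4:**
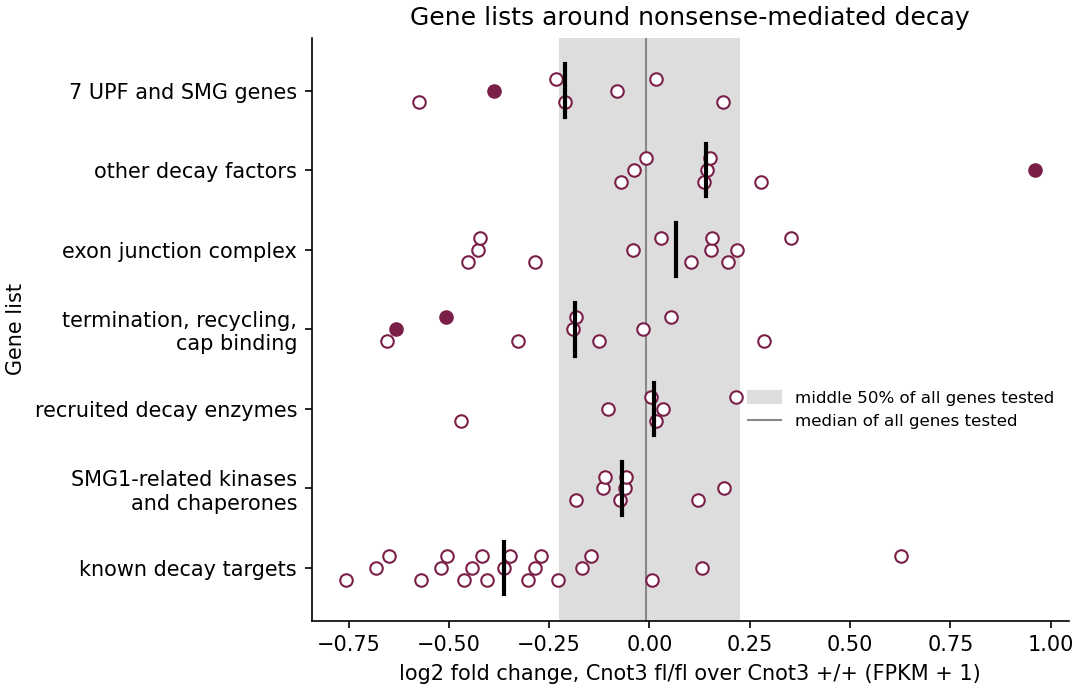
Log2 fold change of Cnot3 fl/fl over Cnot3 +/+ on the log2(FPKM + 1) scale (horizontal axis) for the genes of each list, 1 point a gene, filled where the limma adjusted p was under 0.05, with a black bar at the list's median and a grey band for the middle 50% of all genes tested. The medians run from -0.36 for known decay targets to 0.14 for the other decay factors, and the filled points are Smg5, Mov10, Pabpc1 and Ncbp2.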

How the data were processed

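Each of the 4 library tables that the authors deposited gives FPKM for 23312 genes, and a comparison table gives FPKM per genotype with a p-value and q-value, per the file headers. According to the submitters' processing notes the tools were Cufflinks and Cuffnorm 2.2.1, TopHat2 2.0.13, Bowtie2 2.2.3.0 and bcl2fastq 1.8.4, on mm9. The sources used here state neither their roles nor the annotation, strand setting or library scaling. The labels' protocols describe a stranded mRNA kit.

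From these values, log2(FPKM + 1) was tested in 11017 genes (mean FPKM 1 or more over 4 libraries) with limma 3.58.1 in R 4.3.3, using a genotype term, eBayes with trend, a two-sided test and p-values adjusted by Benjamini-Hochberg over every tested gene. Residual degrees of freedom were 2, and the prior added 2.69. The script was tested on simulated data. Fold changes on this scale understate those of low genes. Relative depth was read from values under 0.3 FPKM. Alternatives were pseudocounts of 0.1 and 5, no filter, a minimum mean of 5 FPKM, quantile and median-ratio scaling, eBayes without trend or robust, a replicate block and leaving out each library.

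The genes described, the lists and the naming rule were chosen with earlier results of these data known. The rule named the 7 genes, Cnot3, sex-linked genes, the 5 nearest profiles, and from each pathway list the calls and up to 4 others with the smallest p. Marker lists had no such rule. Smg9, Gspt1, Atr, Atf3 and Ptbp2 were named outside it, after their values were seen. From the lists 2 genes were left out and are not reported here, and listed genes that go unnamed enter the counts.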

Additional observations from a re-analysis of the deposited data

How the results depend on the processing

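The log2 fold changes of Upf1, Upf3a, Upf3b, Smg1, Smg5 and Smg6 kept their sign in all 13 alternatives. That of Upf2 ran from -0.038 to 0.073 with a library left out, below 0 when replicate 1 of either genotype was dropped (-0.038 for Cnot3 fl/fl, -0.017 for Cnot3 +/+). Smg5 lost its call with no filter (-0.39, adjusted p = 0.068), without the trend (-0.39, adjusted p = 0.068) and without each library in turn (-0.41 to -0.37). With no filter 16296 genes were tested. The replicate numbers are not said to pair the mice, and same-numbered libraries had a correlation of deviations of 0.14 across genes. With a replicate block Smg1 passed (-0.57, adjusted p = 0.047) and Smg5 did not (-0.39, adjusted p = 0.062), the other 5 genes stayed on their side, and all genes called were 456 higher and 270 lower. Over all alternatives the adjusted p ran from 0.047 to 0.28 for Smg1 and from 0.037 to 0.23 for Smg5.

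Against 1 gene of the 7 called lower, there were 0 with no filter, without the trend and without each library in turn (0 to 0). Their median was -0.22 with a pseudocount of 0.1, -0.17 with 5 and -0.22 to -0.20 with a library left out. Against 685 higher and 361 lower calls over all genes, there were 4 and 1 with no filter, 242 and 69 without the trend, and 2 to 18 and 0 to 13 with a library left out. In the pathway lists, against 1 higher and 2 lower calls, there were 0 and 0 with no filter and with any library left out. The lower calls were 4 with quantile scaling, the robust fit and the replicate block and 1 without the trend. Mov10, Pabpc1 and Ncbp2 also lost their calls with no filter and with each library left out, and Ncbp2 without the trend. The cause of these changes was not tested. Both genotypes had 2 libraries and no counts, which limits the precision of every value.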

Other observations

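Genes with an annotated decay-target transcript did not stand apart from other genes by genotype. Of 10025 tested genes matched to a protein-coding gene of GENCODE M21, 3051 had at least 1 such transcript, with a median log2 fold change of -0.01, and 6974 had none, also with a median of -0.01. Among the first 5.74% were called higher and 3.02% lower, and among the second 6.51% and 3.47%. The comparison was chosen after the levels of the decay factors had been seen and is given as a description. It covers whole genes, since the deposited values do not give isoforms.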
